A study of Mus musculus with 6 samples.

Results

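The *Cyp2d* genes of the mouse encode a family of cytochrome P450 enzymes, and 8 of them (*Cyp2d9*, *Cyp2d10*, *Cyp2d11*, *Cyp2d12*, *Cyp2d22*, *Cyp2d26*, *Cyp2d34* and *Cyp2d40*) were examined in the liver of aged wild-type (WT) and *Sirt7* knockout (KO) mice. They were chosen by name, as the copies annotated as protein coding, out of 18 genes whose symbol starts with Cyp2d and out of 54115 genes measured in all. The other 10 genes of that name are pseudogenes. SIRT7 is a lysine deacetylase of the sirtuin family, and the study asked how its loss affects aging and metabolism. Liver RNA was sequenced from 3 WT and 3 *Sirt7* KO male mice, all aged 24 months and all fasted for 16 h, so that no group was fed or young. The KO is present in the whole body from conception, and WT and KO mice were littermates from crosses of heterozygotes on a C57BL/6J background. Each library came from 1 animal.

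Cytochrome P450 enzymes of the endoplasmic reticulum hold a heme group that binds oxygen and adds 1 oxygen atom to drugs, steroids and other small lipophilic molecules. Electrons reach them from NADPH through P450 oxidoreductase, encoded by *Por*, and in part through cytochrome b5. The human genome has a single active gene of the family, *CYP2D6*, which clears a large share of common medicines, whereas the mouse carries a tandem cluster of similar copies that hepatocytes express. *Cyp2d9* encodes the male-specific testosterone 16-alpha-hydroxylase, whose expression depends on the male pattern of growth hormone release. *Cyp2d22* is regarded as the mouse gene closest to *CYP2D6* in the reactions it catalyzes. The separate substrates of the other copies are less well known.

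In the GENCODE M21 annotation of GRCm38 all 8 genes lie on chromosome 15, between 82370527 and 82794294, within 424 kb. *Cyp2d9* (ENSMUSG00000068086.6, 82433437 to 82456845) and *Cyp2d12* (ENSMUSG00000096852.2, 82555072 to 82560403) are on the forward strand. The other 6 genes are on the reverse strand, namely *Cyp2d22* (ENSMUSG00000061740.8, 82370527 to 82380260), *Cyp2d11* (ENSMUSG00000068085.6, 82389154 to 82394022), *Cyp2d10* (ENSMUSG00000094806.2, 82402846 to 82407195), *Cyp2d34* (ENSMUSG00000094559.2, 82615965 to 82620946), *Cyp2d40* (ENSMUSG00000068083.2, 82759833 to 82764183) and *Cyp2d26* (ENSMUSG00000022445.7, 82790101 to 82794294). The leading coding transcript has 1500 to 1512 coding bases in 9 or 10 exons in 7 of the genes. *Cyp2d40* differs in its annotation, with 1014 coding bases in 6 exons.

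RefSeq gave a promoter for 5 of the 8 genes (build GRCm38.p6), as 300 bases around the start of transcription. The 90 bases that end with the first TATAAG, a sequence like the TATA box, are printed for all 5, since they show how alike the copies are and where they part. Capitals mark 3 motifs. The first is TATAAG itself. Another is AGGNCANAGGNCA, a direct repeat of AGGNCA spaced by 1 base, the type of site that HNF4A binds and that is known from the promoter of human *CYP2D6*, marked where at most 1 base departed from it. The last is TTCCGG, a core of the sites of GA-binding protein, which is known to act at the *Cyp2d9* promoter.
Cyp2d9, chr15:82452267-82452356, forward strand: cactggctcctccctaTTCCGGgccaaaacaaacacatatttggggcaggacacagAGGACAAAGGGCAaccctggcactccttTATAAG
Cyp2d10, chr15:82407218-82407307, reverse strand: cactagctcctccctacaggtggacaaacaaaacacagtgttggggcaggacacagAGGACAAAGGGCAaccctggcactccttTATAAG
Cyp2d11, chr15:82394058-82394147, reverse strand: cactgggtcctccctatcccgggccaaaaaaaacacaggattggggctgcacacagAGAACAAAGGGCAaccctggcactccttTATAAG
Cyp2d40, chr15:82764206-82764295, reverse strand: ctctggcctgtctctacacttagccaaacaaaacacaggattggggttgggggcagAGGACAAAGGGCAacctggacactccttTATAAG
Cyp2d26, chr15:82794269-82794358, reverse strand: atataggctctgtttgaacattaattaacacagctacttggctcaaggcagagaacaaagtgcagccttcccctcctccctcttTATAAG

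Both strands were searched for each motif. AGGNCANAGGNCA was found in 3 of the 5 promoters, those of *Cyp2d9*, *Cyp2d10* and *Cyp2d40*, always with its first base 28 bases before TATAAG, whereas 0.381% of all 32851 RefSeq promoters of 300 bases hold it. *Cyp2d11* had 1 mismatch to it at the same place. Allowing 1 mismatch, a choice made after the sequences were seen, gave 4 of 5 promoters against 4.71% of all, and *Cyp2d26* was the promoter left out. TTCCGG was present in that of *Cyp2d9* alone and in 14.9% of all promoters, and TATAAG in 5 of 5 and in 7.43% of all. Its place relative to the start differed between annotations. In *Cyp2d40* it lay 89 bases before the RefSeq start and 28 before the GENCODE start. In *Cyp2d9* and *Cyp2d26* it lay 26 and 29 bases before the RefSeq start but inside the GENCODE transcript (-17 and -20). A match of letters describes the sequence and is not a measured binding site.

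The coding sequences of the copies were also very similar. Pairwise identity of aligned bases ran from 77.9% (*Cyp2d12* and *Cyp2d22*) to 94.7% (*Cyp2d10* and *Cyp2d11*), and was 92.5% between the leading pair, *Cyp2d9* and *Cyp2d10*. The 60 coding bases over the heme-binding signature (coding bases 1300 to 1359, and 814 to 873 in *Cyp2d40*) are printed from the GENCODE transcripts for the 4 genes that the results turn on, with capitals at each difference from *Cyp2d9*.
Cyp2d9: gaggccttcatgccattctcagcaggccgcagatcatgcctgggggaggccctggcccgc
Cyp2d10: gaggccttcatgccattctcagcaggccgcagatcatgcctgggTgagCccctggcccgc
Cyp2d26: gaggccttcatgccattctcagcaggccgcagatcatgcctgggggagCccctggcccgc
Cyp2d40: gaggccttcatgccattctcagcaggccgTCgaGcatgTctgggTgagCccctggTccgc
*Cyp2d40* had 7 differences from *Cyp2d9* in this stretch, *Cyp2d10* had 2 and *Cyp2d26* had 1.

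This likeness bears on every value, because Salmon divides a read that fits several copies among them. The share of the words of 31 bases in a gene's transcripts that occur in any other gene was 58.5% for *Cyp2d11* and 50.2% for *Cyp2d10*. It was 34.8% for *Cyp2d9*, 27.6% for *Cyp2d40*, 15.8% for *Cyp2d12* and 14.5% for *Cyp2d34*, with *Cyp2d26* between the last 2. *Cyp2d22* stood most apart, with 6.93%. For *Cyp2d26* and *Cyp2d40*, to which the genotype comparison returns, 1542 of 1814 and 1326 of 1831 words were their own. The division of reads between *Cyp2d9*, *Cyp2d10* and *Cyp2d11* is less certain than their sum.

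**Figure D1:**
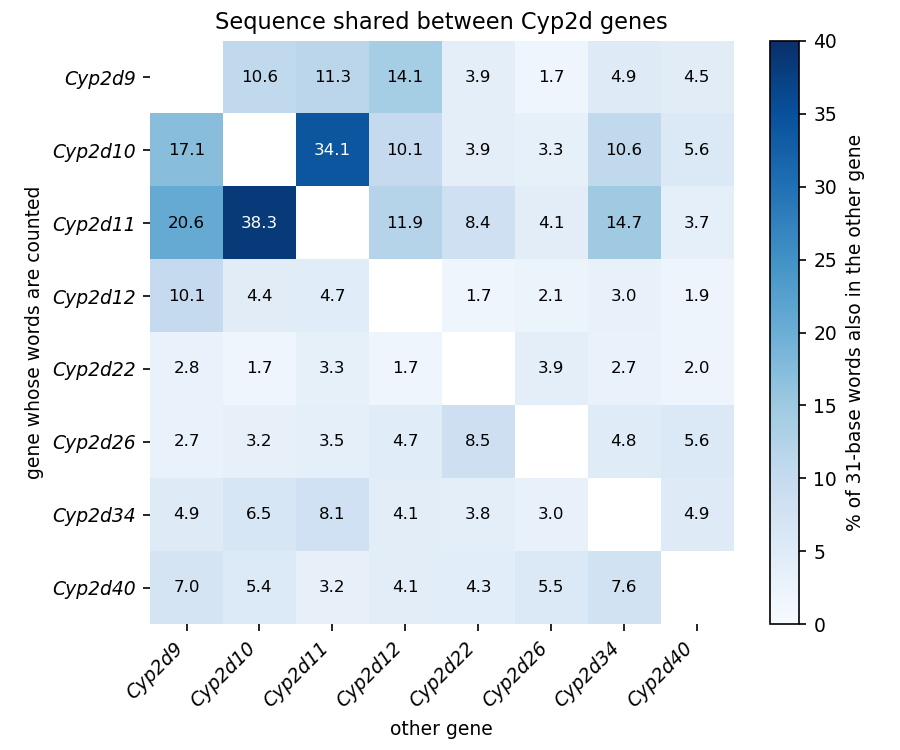
Percentage of the 31-base words in the transcripts of each gene (rows) that also occur in each other gene (columns). *Cyp2d11* and *Cyp2d10* shared the most, and the row of *Cyp2d22* is the palest.

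Between 9994860 and 13424776 reads per liver were assigned to transcripts. *Sirt7* itself, summed over its transcripts, stood at 49.3 ± 5.19 CPM (reads of the gene scaled to a library of fixed size, by the TMM method of edgeR) in WT and 37.0 ± 7.34 CPM in KO livers (SD, n = 3), with all 3 KO livers below the WT livers (log2 fold change -0.41, standard error 0.18, edgeR adjusted p = 0.42). The sources used here do not give the exons that the allele lacks, so this gene sum checks the labels only in part. Markers of hepatocytes were abundant in every library, as the tissue label requires. The summed level of 9 such genes was 55686 to 57840 CPM in WT and 59595 to 68655 CPM in KO livers, higher in all 3 KO livers. Of the 9, 5 were higher and 4 lower by edgeR log2 fold change. The mean rose for *Apoa1* (12010 CPM in WT, 15787 in KO) and *Fga* (3561 and 6505) and fell for *Alb* (24857 and 23747). The part of this sum in the *Cyp2d* values was not tested. For pericentral and periportal hepatocytes, Kupffer cells, endothelium, stellate cells, cholangiocytes and lymphocytes the summed levels overlapped between genotypes. In whole tissue, fewer cells that express a gene and less RNA of it per cell cannot be told apart. WT replicate 1 stood apart from the other livers in genes of male-biased expression, as given with *Cyp2d9*. KO replicate 1 was the least like its own group. Its rank correlation (Spearman) was 0.950 with KO replicate 2 and 0.952 with KO replicate 3, but 0.961 with WT replicate 3. Between KO replicates 2 and 3 it was 0.973.

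Levels of the copies were compared as TPM, which scales for transcript length as well as library size. *Cyp2d10* and *Cyp2d9* were the leading copies and ranked 91st and 98th of all genes by mean TPM over the 6 livers, at 1335 and 1284 TPM. Their order was not fixed, since *Cyp2d10* was above *Cyp2d9* in 3 of 6 livers and the ranges overlapped. *Cyp2d26* followed at 459 TPM, *Cyp2d22* at 145 TPM and *Cyp2d40* at 49.3 TPM, and each of these was below the copy before it in 6 of 6 livers with no overlap of ranges.

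*Cyp2d12*, *Cyp2d34* and *Cyp2d11* were close to the limit of detection, at 1.92, 0.82 and 0.40 TPM. *Cyp2d40* exceeded *Cyp2d12*, the next in order, 25.7-fold and in 6 of 6 livers, whereas the ranges of neighbours among the 3 rare copies overlapped. Within the family, *Cyp2d9* made up 27.7 to 43.6% of the summed TPM of the 8 genes and *Cyp2d10* made up 37.5 to 46.7%. The share of *Cyp2d26* was 10.6 to 18.7%.

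**Figure D2:**
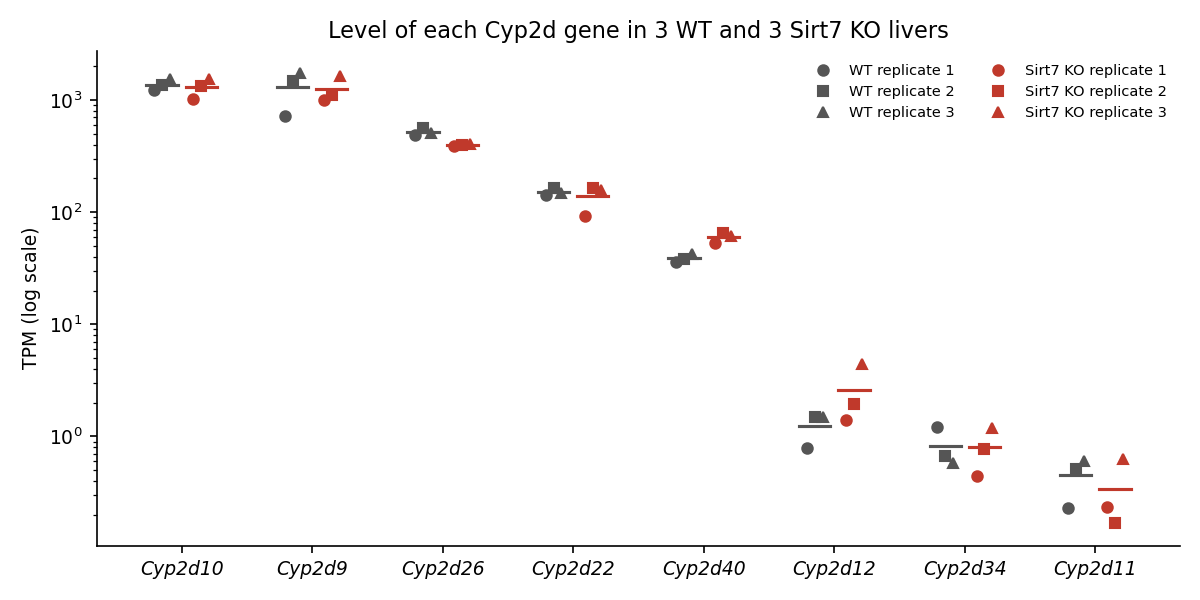
TPM (log scale) of the 8 *Cyp2d* genes, in order of mean level, in each of the 3 WT (grey) and 3 *Sirt7* KO (red) livers, with lines at the mean of each genotype. The levels fall from 1335 TPM for *Cyp2d10* to 0.40 TPM for *Cyp2d11*, and the genotypes stand clear of each other only for *Cyp2d26* and *Cyp2d40*.

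The genotype comparison asked whether the loss of SIRT7 in the aged liver went with a different level of any *Cyp2d* gene. With edgeR's quasi-likelihood test, 0 of the 7 tested members were called at an adjusted p under 0.05 and a fold change over 1.5, where 0.00798% of all 12524 tested genes were called (1 gene). At an unadjusted p under 0.05, 2 members were found against 11.3% of all tested genes. These were *Cyp2d40*, the only 1 of 3 higher members to reach that threshold (6.54% of all tested genes did so upward), and *Cyp2d26*, the only 1 of 4 lower members (4.78% downward). In 2 of 7 members the livers of the genotypes did not overlap, against 16.8% of all tested genes. The median log2 fold change was -0.02 over the 7 members and -0.01 over all tested genes.

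*Cyp2d9*, the testosterone hydroxylase, stood at 1023, 2178 and 2478 CPM in WT replicates 1 to 3 and at 1575, 1620 and 2368 CPM in KO replicates 1 to 3. WT replicate 1 was the lowest of the 6 livers and WT replicate 3 the highest, so the KO range lay inside the WT range. The means were 1893 ± 768 CPM in WT and 1854 ± 445 CPM in KO livers (SD, n = 3), with a log2 fold change of -0.03 (standard error 0.32, edgeR adjusted p = 0.98). Without WT replicate 1 the log2 fold change was -0.33 (edgeR adjusted p = 0.73), and without WT replicate 3 it was 0.21.

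*Cyp2d10*, its close copy, stood at 1636, 2099 and 2311 CPM in WT livers and at 1641, 2019 and 2308 CPM in KO livers. The 3 values of each genotype covered nearly the same range and overlapped throughout. The log2 fold change was -0.02 (standard error 0.20, edgeR adjusted p = 0.98). The ratio of *Cyp2d9* to *Cyp2d10* reads was 0.63, 1.04 and 1.07 in WT and 0.96, 0.80 and 1.03 in KO livers, with WT replicate 1 again the lowest.

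*Cyp2d22*, the copy likened to human *CYP2D6*, stood at 247, 262 and 325 CPM in WT and at 227, 314 and 308 CPM in KO livers. The lowest liver was a KO liver and the highest a WT liver, and the genotypes overlapped. The log2 fold change was 0.03 (standard error 0.18, edgeR adjusted p = 0.97) and turned to -0.08 when the libraries were scaled by total counts alone.

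*Cyp2d26* stood at 778, 994 and 883 CPM in WT and at 719, 680 and 681 CPM in KO livers. Every KO liver was below every WT liver, which was so for 8.09% of all tested genes, and the KO livers lay close together. The mean was 885 ± 108 CPM in WT and 693 ± 22.5 CPM in KO livers (SD, n = 3). This gave a log2 fold change of -0.35 (standard error 0.15), with an unadjusted p of 0.0475 and an adjusted p of 0.43 by edgeR, so the difference did not pass the test after adjustment. The unadjusted p also missed 0.05 in several other fits, among them RLE scaling (0.054), edgeR without a filter (0.087) and 4 of the 6 edgeR fits with 1 liver left out, where it ran from 0.020 to 0.16. In edgeR it was under 0.05 with total counts (0.010), upper-quartile scaling (0.039), coding transcripts only (0.039) and a mean of at least 50 counts (0.042). It was also under 0.05 with DESeq2 (0.033) and limma on TPM (0.028). The adjusted p was at least 0.26 in every fit. The two-sided exact permutation test gave p = 0.1, the smallest that 3 livers against 3 allow.

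*Cyp2d40* moved the other way, with 36.7, 44.8 and 47.6 CPM in WT and 62.8, 73.2 and 67.1 CPM in KO livers. Every KO liver was above every WT liver, as in 8.74% of all tested genes. The mean was 43.0 ± 5.67 CPM in WT and 67.7 ± 5.23 CPM in KO livers (SD, n = 3), a fold change of 1.57, and 7.39% of all tested genes passed both an unadjusted p under 0.05 and a fold change over 1.5 in either direction. The log2 fold change was 0.65 (standard error 0.15), with an unadjusted p of 0.00196 and an adjusted p of 0.17 by edgeR.

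The call for *Cyp2d40* depended on the test. It passed with DESeq2 (adjusted p = 0.041), where 1.77% of 14504 genes were called, and with edgeR without a filter on low counts (adjusted p = 0.029), where 2.27% of 27881 genes were called. It did not pass with DESeq2 and a transcript length offset (adjusted p = 0.086), where 1.87% of 12963 genes were called. With 1 liver left out its log2 fold change ran from 0.55, without WT replicate 1, to 0.74. Among these fits its edgeR adjusted p was lowest without KO replicate 1 (0.066), where 252 of 12921 genes were called.

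*Cyp2d26* and *Cyp2d40* follow each other along the cluster, with the pseudogene *Cyp2d41-ps* between them, whose values are given with the other pseudogenes. The ratio of their reads, which no scaling of the libraries alters, was 21.2, 22.2 and 18.6 in WT and 11.5, 9.29 and 10.1 in KO livers. It averaged 20.7 ± 1.86 in WT and 10.3 ± 1.09 in KO livers (SD, n = 3), and no KO liver came near a WT liver. The pair was singled out after its values were seen, so the ratio is given with no test. Of the words of *Cyp2d26*, 5.6% occur in *Cyp2d40*, and 5.5% the other way.

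*Cyp2d12* stood at 2.12, 4.54 and 4.51 CPM in WT and at 4.12, 4.66 and 9.83 CPM in KO livers. The highest value came from KO replicate 3 and the lowest from WT replicate 1, and the genotypes overlapped (log2 fold change 0.73, standard error 0.43, edgeR adjusted p = 0.58). The log2 fold change was 0.24 without KO replicate 3 and 0.45 without WT replicate 1. Its reads were mostly assigned to a transcript with a retained intron, which took at least 57.0% of them in each liver. The coding transcript was assigned 0 reads in all 3 WT livers and 4.8, 13.7 and 43.9 reads in the KO livers. These few reads rest on Salmon's division between transcripts and were not tested.

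*Cyp2d34* stood at 1.78, 1.27 and 0.96 CPM in WT and at 0.82, 1.06 and 1.45 CPM in KO livers, with overlap (log2 fold change -0.26, standard error 0.49, edgeR adjusted p = 0.89). Without WT replicate 1 the log2 fold change was -0.011, and without KO replicate 1 it was -0.084. Of its reads, at most 15.5% in any liver were assigned to its coding transcript. *Cyp2d11* had 4, 10 and 13 reads in WT and 4, 3 and 10 reads in KO livers, too few to be tested. No change of *Cyp2d11* or *Cyp2d34* was detectable at this depth. In *Cyp2d9*, *Cyp2d10*, *Cyp2d22*, *Cyp2d26* and *Cyp2d40*, at least 89.5% of the reads of each liver were assigned to coding transcripts.

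**Figure D3:**
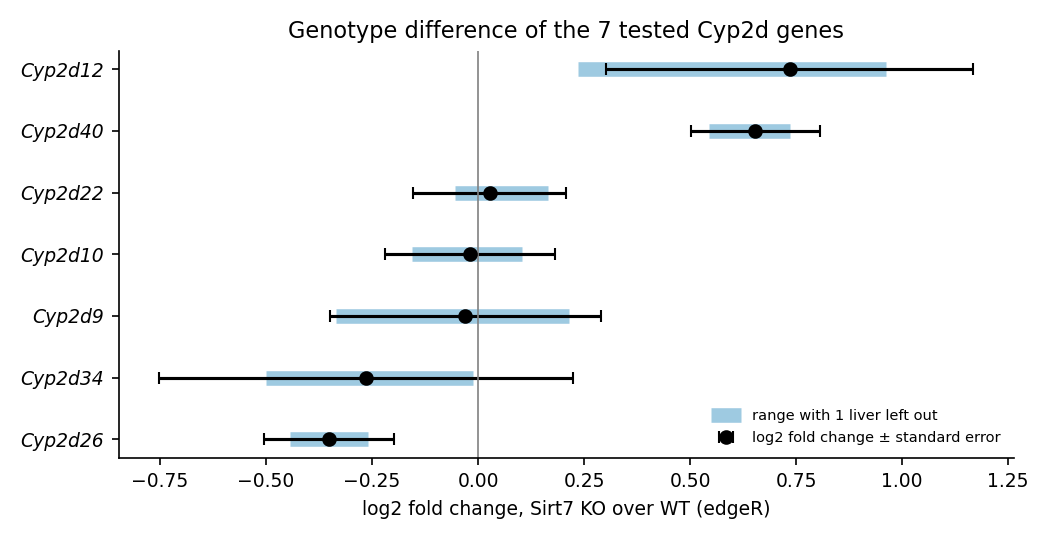
Log2 fold change (KO over WT) of the 7 tested *Cyp2d* genes from edgeR, with the standard error derived from the F statistic (black bars). Blue bands give the range when any 1 of the 6 livers was left out. *Cyp2d40* (0.65) and *Cyp2d26* (-0.35) stay on their side of 0 in all such fits, as *Cyp2d12* and *Cyp2d34* do with wider errors, whereas *Cyp2d9*, *Cyp2d10* and *Cyp2d22* lie at 0 and cross it.

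The sum over the 8 genes, inside which reads shared between copies stay, was 3725, 5584 and 6051 CPM in WT and 4231, 4713 and 5744 CPM in KO livers. The KO livers lay within the WT range, and the ratio of the means was 0.96. WT replicate 1 was the lowest here too. The family took 0.417 to 0.612% of the reads on genes. Of the tested genes outside the family, those closest to the summed level liver by liver were *Gadd45a*, *Cebpe*, *Cyp3a11*, *Zscan21* and *Mavs*. Their root mean square difference from it in centred log2 CPM over the 6 livers was 0.072 to 0.089, whereas the median tested gene was at 0.384. These genes were picked as the closest of all, so a value far below the median follows from the choice. Shared regulation was not tested. *Cyp3a11*, at 0.085, encodes another major drug-metabolizing P450.

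Of the 10 pseudogenes, 4 had no read in any liver (*Cyp2d32-ps*, *Cyp2d33-ps*, *Cyp2d34-ps* and *Cyp2d39-ps*) and 4 had enough reads to be tested. *Cyp2d35-ps* and *Cyp2d67-ps* had 5 reads each over all livers. The most abundant, *Cyp2d37-ps*, had 210, 349 and 448 reads in WT and 362, 287 and 269 reads in KO livers, with overlap. *Cyp2d38-ps* had 49, 68 and 109 reads in WT and 113, 65 and 101 in KO livers, again with overlap. *Cyp2d36-ps* had 2, 22 and 32 reads in WT and 17, 9 and 10 in KO livers, also with overlap. *Cyp2d41-ps* had 6, 45 and 56 reads in WT and 60, 45 and 49 in KO livers. Its CPM was 0.51, 4.08 and 4.14 in WT and 5.49, 4.77 and 4.72 in KO livers. All 3 KO livers were above the WT livers, as in 8.74% of all tested genes. The log2 fold change was 0.77 (standard error 0.59, edgeR adjusted p = 0.68).

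*Cyp2d9* was also viewed beside 22 genes, itself included, that male livers are known to express more than female livers. At an unadjusted p under 0.05, 15 of these were higher in KO livers and 0 were lower, with a median log2 fold change of 1.16. Among all tested genes, 6.54% were higher and 4.78% lower at that threshold. Of the 22, however, 0 were called by edgeR, 9 by DESeq2 (1.77% of all 14504 genes) and 19 by edgeR without a filter on low counts (2.27% of all 27881). The 3 with the smallest p were *Cyp7b1*, an oxysterol hydroxylase (log2 fold change 1.18), *Hsd3b5*, a steroid dehydrogenase (4.41), and the complement gene *C8a* (0.89), with edgeR adjusted p = 0.10, 0.10 and 0.12. *Cyp2d9*, at -0.03, was the only 1 of the 22 with a value below 0 in edgeR with TMM, and the difference between it and the rest was not tested. Without WT replicate 1, 17 of the 22 were higher at that threshold and the median was 0.88.

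Liver by liver, the mean of the 21 genes other than *Cyp2d9*, in centred log2 CPM, was -2.16, -0.33 and -0.04 in WT and 0.86, 0.61 and 1.05 in KO livers. *Cyp2d9* on that scale was at -0.81, 0.28 and 0.47 in WT and at -0.19, -0.15 and 0.40 in KO livers. Both were lowest in WT replicate 1, but *Cyp2d9* was above its own mean in the other WT livers. Of 22 female-biased genes only 10 had enough reads to be tested. At an unadjusted p under 0.05 in edgeR 2 of them were higher and 3 lower (median log2 fold change 0.23). Among all tested genes, 6.54% were higher and 4.78% lower. Of the list, 0 were called by edgeR and 1 by DESeq2 (1.77% of all 14504 genes). Without the filter on low counts all 22 entered, of which 4 were higher and 8 lower (median -1.10). In that fit 9 were called, and 2.27% of all 27881 genes. Their summed level was 236 to 344 CPM in WT and 61.0 to 125 CPM in KO livers, lower in all 3 KO livers. Most of the WT sum came from *Acot3* (mean 147 CPM in WT, 18.6 in KO) and *Cyp2b9* (56.6 and 3.98). *Cyp2b9* was at 154 CPM in WT replicate 1. The sum therefore leans on *Acot3* and *Cyp2b9*. The fit of all 22 genes without a filter leaned lower too, whereas 5 of the 10 genes tested with the filter were higher and 5 lower. The 3 with the smallest p were the acyl-CoA thioesterase *Acot3* (log2 fold change -2.98), *Atp6v0d2* (1.54) and the P450 gene *Cyp2b9* (-3.85).

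**Figure D4:**
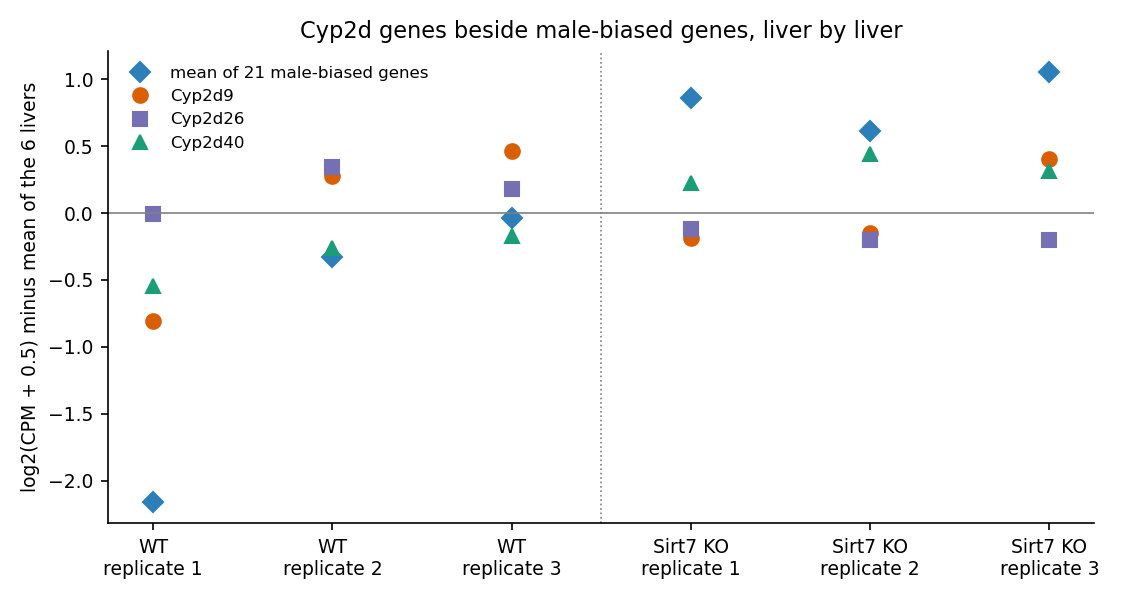
Log2(CPM + 0.5) minus the mean of the 6 livers, for *Cyp2d9*, *Cyp2d26*, *Cyp2d40* and the mean of 21 male-biased genes, in each liver. WT replicate 1 is lowest for the male-biased mean (-2.16) and for *Cyp2d9* (-0.81). *Cyp2d40* lies above 0 and *Cyp2d26* below 0 in all 3 KO livers.

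The partners that P450 enzymes need were taken from a list of 14 genes of electron transfer and heme synthesis, all of them tested. At an unadjusted p under 0.05, 2 were higher and 2 lower in KO livers, beside 6.54% and 4.78% of all tested genes. Of the 14, 0 were called by edgeR and 2 by DESeq2 (1.77% of all 14504 genes), and the median log2 fold change in edgeR was 0.01. *Alas1*, the rate-limiting enzyme of heme synthesis, was at 1050 ± 394 CPM in WT and 399 ± 124 CPM in KO livers (SD, n = 3, log2 fold change -1.40, edgeR adjusted p = 0.17). *Por*, the electron donor, was at 690 ± 78.7 CPM in WT and 482 ± 117 CPM in KO livers (log2 fold change -0.52, edgeR adjusted p = 0.39). *Cyb5r3*, the reductase of cytochrome b5, had a log2 fold change of 0.77 (edgeR adjusted p = 0.26). The KO livers were all below the WT livers for *Alas1* and *Por* and all above for *Cyb5r3* and *Ppox*, beside a *Cyp2d* sum that overlapped. The genotypes did not overlap in 16.8% of all tested genes.

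Of 23 factors known to act on hepatic P450 genes, 21 were tested, of which 3 were higher and 7 lower at an unadjusted p under 0.05, with 0 called by edgeR, 2 called by DESeq2 and a median log2 fold change of -0.12. Of all tested genes, 6.54% were higher and 4.78% lower at that threshold. With all 23 factors in the fit the median was -0.32, both with DESeq2 and with edgeR without a filter, which called 5. Their summed level was 2040 to 2316 CPM in WT and 1709 to 1836 CPM in KO livers, lower in all 3 KO livers. Of the 21 tested, 6 were higher and 15 lower, and the sum leans on *Nr1i3*, which had the largest fall in CPM. *Nr1i3*, which encodes the xenobiotic receptor CAR, was at 598 ± 133 CPM in WT and 308 ± 19.3 CPM in KO livers (SD, n = 3, log2 fold change -0.96, edgeR adjusted p = 0.14). *Bcl6*, a repressor in growth hormone signalling, had a log2 fold change of 1.88 (edgeR adjusted p = 0.17). *Nr0b2*, which encodes the repressor SHP, had one of 0.72 (edgeR adjusted p = 0.25). The value for *Hnf4a*, whose type of site was described in the promoters, was -0.44 (edgeR adjusted p = 0.46), with overlap.

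Other genes of the *Cyp2* subfamilies numbered 52, of which 26 were tested, with a median log2 fold change of 0.21. At an unadjusted p under 0.05, 2 were higher and 4 lower, beside 6.54% and 4.78% of all tested genes. None of the 26 was called by edgeR and 4 were by DESeq2 (1.77% of all 14504 genes). Those with the smallest p were *Cyp2j9* (-0.93), *Cyp2c38* (-1.64) and *Cyp2u1* (0.85), with edgeR adjusted p = 0.15, 0.15 and 0.17. Within 500 kb of the cluster, 21 of 68 other genes were tested, and 2 were higher and 1 lower at that threshold (median -0.14), with 0 called by edgeR and 1 by DESeq2. Those with the smallest p were *Cyb5r3* (0.77), *Srebf2* (0.52) and *Gm20324* (-1.21). This count of 3 in 21 is close to the 11.3% of all tested genes.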

How the data were processed

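Liver RNA of 3 WT and 3 *Sirt7* KO mice was reverse transcribed with SMART-seq HT and made into Nextera XT libraries, which do not mark strand, and read from a single end. The authors trimmed reads with Trim Galore 0.6.5, quantified them on the GRCm38 transcriptome with Salmon 1.2.1 at default settings, and deposited estimated counts and TPM per transcript. The annotation release is not given in the sources used here. Estimated counts of 140992 transcripts were summed per gene of GENCODE M21 and rounded, and 1201 transcripts without a gene (0.303 to 0.492% of reads) were left out. TPM was summed likewise.

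Genotype was tested with edgeR 4.0.16 (R 4.3.3; TMM, quasi-likelihood test, filterByExpr with a minimum count of 10, Benjamini-Hochberg adjustment over 12524 genes), after a test on simulated data. The test reports no standard error, so that given for edgeR is the absolute log2 fold change divided by the square root of the F statistic. CPM used TMM library sizes, and log2(CPM + 0.5) entered the exact permutation tests. DESeq2 1.42.0 and limma 3.58.1, on log2(TPM + 1), were alternatives. Livers of 1 genotype differed beyond sampling noise and counted as separate samples, each from 1 animal. Sequences came from RefSeq promoters and GENCODE transcripts.

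The 8 members, all named *Cyp2d* genes, the 3 genes of smallest p in each list and neighbourhood, the 5 genes most like the family sum and *Sirt7* were named by rule, and *Hnf4a* was added after its value was seen. Members and lists were chosen with earlier results of these data known. The male-biased pattern had been seen before and is no independent support.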

Additional observations from a re-analysis of the deposited data

How the results depend on the processing

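The log2 fold changes of *Cyp2d40*, *Cyp2d26*, *Cyp2d12* and *Cyp2d34* kept their sign under every alternative that could be fitted, and *Cyp2d40* passed at 0.66 both with DESeq2 and without a filter on low counts, so that 1 member was called there, as it was at an unadjusted p under 0.05 with a fold change over 1.5. The sign of *Cyp2d22* turned with total counts only (-0.0805), DESeq2 with a length offset (-0.0862), edgeR with a length offset (-0.0954) and limma on TPM (-0.17). With 1 liver left out, the log2 fold change ran from -0.33 to 0.21 for *Cyp2d9*, from -0.15 to 0.10 for *Cyp2d10* and from -0.0553 to 0.17 for *Cyp2d22*. At an unadjusted p under 0.05 there was 1 member with RLE scaling and 1 with edgeR and a length offset, and 1 to 2 with a liver left out. *Cyp2d40* passed that threshold in each of these fits, whereas *Cyp2d26* missed it with RLE scaling (0.054), either length offset (0.062 in edgeR, 0.084 in DESeq2), no filter (0.087) and without WT replicate 2 or 3 or KO replicate 2 or 3. *Cyp2d12* passed it with no filter (0.035) and with DESeq2 and a length offset (0.038). With 1 liver left out, *Cyp2d12* ran from 0.24 to 0.96 and *Cyp2d34* from -0.50 to -0.011 on the log2 scale. Over all genes, the call count was 1 with TMM, 2 with total counts only, 2 with edgeR and a length offset, 242 with DESeq2 and a length offset, 256 with DESeq2 and 633 without a filter, and with 1 liver left out it ran from 0 to 252 (252 without KO replicate 1, 2 without WT replicate 1 and 0 without each of the others). Total counts shifted the median of all genes to -0.11. The log2 ratio of the summed level stayed within its spread of 0.38 under all alternatives (-0.25 to 0.07). Causes were not tested.

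The labels number the mice of each genotype, but the mice are different animals, and the deviations of livers with the same number correlated at 0.06, 0.07 and -0.05, so the numbers were not taken as pairs. With the replicate number as a block, 41 genes and 0 members were called, *Cyp2d40* alone had an unadjusted p under 0.05 (1 member, with *Cyp2d26* at 0.059), and *Cyp2d9* was at 0.0424. Depth limits the 3 rare copies, and sequence shared between copies limits the division of reads among *Cyp2d9*, *Cyp2d10* and *Cyp2d11*. Sequence shared with the pseudogenes limits the value of *Cyp2d40* too.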
